A study of Oryza sativa with 8 samples.

Results

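SGR, NYC1 and NOL are rice genes of chlorophyll breakdown. They were followed on every probe set that the platform's gene table gives to 1 of them alone, which made 5 of the 57194 probe sets tested and 3 of the 17905 genes with a probe set of their own. SGR had 2 probe sets, NYC1 had 1 and NOL had 2. All 5 had a mean log2 value above 5 over the 8 arrays, as did 47.9% of all probe sets.

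Leaf chlorophyll exists as chlorophyll a and chlorophyll b, and both are dismantled when a leaf senesces. Chlorophyll b is first turned back towards chlorophyll a by chlorophyll b reductase, whose rice members NYC1 and NOL are related short-chain dehydrogenases that act together. SGR, the stay-green protein, acts on chlorophyll a, where it removes the central magnesium and is needed for the light-harvesting complexes to be taken apart. Mutants of these genes keep green leaves during senescence.

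The arrays were made from leaves of 21-day-old seedlings of the japonica cultivar Zhonghua11, grown in culture solution with 16 h of light at 28 °C and 8 h of dark at 24 °C. There were 4 groups of 2 biological replicates, each replicate a pool of 20 seedlings: wild type (WT) and OsGRAS23 overexpression plants under normal conditions, and the same 2 genotypes under drought. OsGRAS23 is a transcription regulator of the GRAS family, and the promoter that drove it and the number of lines used are not given in the sources used here. Normal leaves were taken before the treatment, and drought leaves once seedlings laid on filter paper showed rolling in WT, so the state of WT set the sampling of both genotypes. No array held watered seedlings handled and timed in the same way, so drought cannot be told apart from handling or elapsed time.

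Values are log2 expression per probe set, made by the authors with RMA. Across probe sets, which are not independent replicates, the replicates of a group correlated at 0.987 to 0.991, and array medians lay between 4.8 and 4.9. The difference between the 3′ and 5′ probe sets of 7 control transcripts, a measure of RNA integrity, ran from 0.79 to 1.02 on normal arrays and from 0.67 to 1.09 on drought arrays. Of 5 leaf blade marker genes with a probe set (7 names listed), RBCS, RCA, CAB2R and GLO1 had group means of 10.54 to 14.11, while the probe set of RBCS1 stayed at 3.36 to 3.53. Their summed level was 15.51 to 15.59 on WT normal arrays, 15.17 to 15.24 on WT drought arrays, 15.40 to 15.52 on OsGRAS23 normal arrays and 14.89 to 15.33 on OsGRAS23 drought arrays. Of 6 root marker names, the silicon transporter genes LSI1 and LSI2 had probe sets, and both were measured in these leaf samples. Their summed level was 10.84 to 11.89 on WT normal arrays, 9.24 to 9.34 on WT drought arrays, 9.35 to 11.99 on OsGRAS23 normal arrays and 9.47 to 10.01 on OsGRAS23 drought arrays. The summed level of these 2 genes was lower under drought in WT and overlapped in OsGRAS23 plants. In WT, LSI2 changed by -2.90 (limma adjusted p = 0.0337) and was called, and LSI1 by -2.04 (limma adjusted p = 0.0727) and was not. Whether root content or the regulation of these 2 genes differed was not tested, nor was their part in the results below. Summed levels of 4 dividing cell markers were 8.73 to 9.05 on WT normal, 8.25 to 8.85 on WT drought, 9.01 to 9.69 on OsGRAS23 normal and 8.77 to 8.90 on OsGRAS23 drought arrays. The cyclin gene CYCB2;2 fell in WT drought leaves (-1.16, limma adjusted p = 0.0397), while CYCB1;1 (gene 4327547) and CYCB2;1 had changes of -0.14 and -0.03 and did not pass. Summed levels of 5 flower markers were 9.12 to 9.42 on WT normal and 9.65 to 9.79 on WT drought arrays, so drought was higher in WT. They were 9.40 to 9.54 on OsGRAS23 normal and 9.40 to 9.70 on OsGRAS23 drought arrays. The WT changes of the 3 brightest were 0.50 and 0.06 for the genes named MADS2 and 0.22 for MADS4, none called. The part of these markers in the results was not tested. OsGRAS23 normal replicate 1 stood apart from its partner, with LSI1 at 9.27 against 11.89, LSI2 at 5.27 against 8.05 and CYCB2;2 at 7.82 against 7.07. No probe set is named for GRAS23 in the tables used, so the overexpressed gene was not checked.

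SGR rose in drought leaves of WT, by 2.70-fold on the brighter of its probe sets and by 2.09-fold on the other. NYC1 and NOL did not pass the test in either genotype. The first SGR probe set, Os.11666.1.S1_at, matches a single transcript. It read 8.13 and 7.67 on the WT normal arrays and 9.34 and 9.32 on the WT drought arrays. On the OsGRAS23 arrays it read 8.76 and 7.88 under normal conditions and 9.51 and 9.05 under drought. All 4 drought arrays lay above all 4 normal arrays, and the normal arrays were the more scattered, the OsGRAS23 normal pair most of all. Arrays did not overlap, with drought higher, for 11.9% of all probe sets in this 4 against 4 comparison. Leaf samples are mixtures, so fewer cells of a type and less RNA per cell cannot be told apart for any of these genes.

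**Figure D1:**
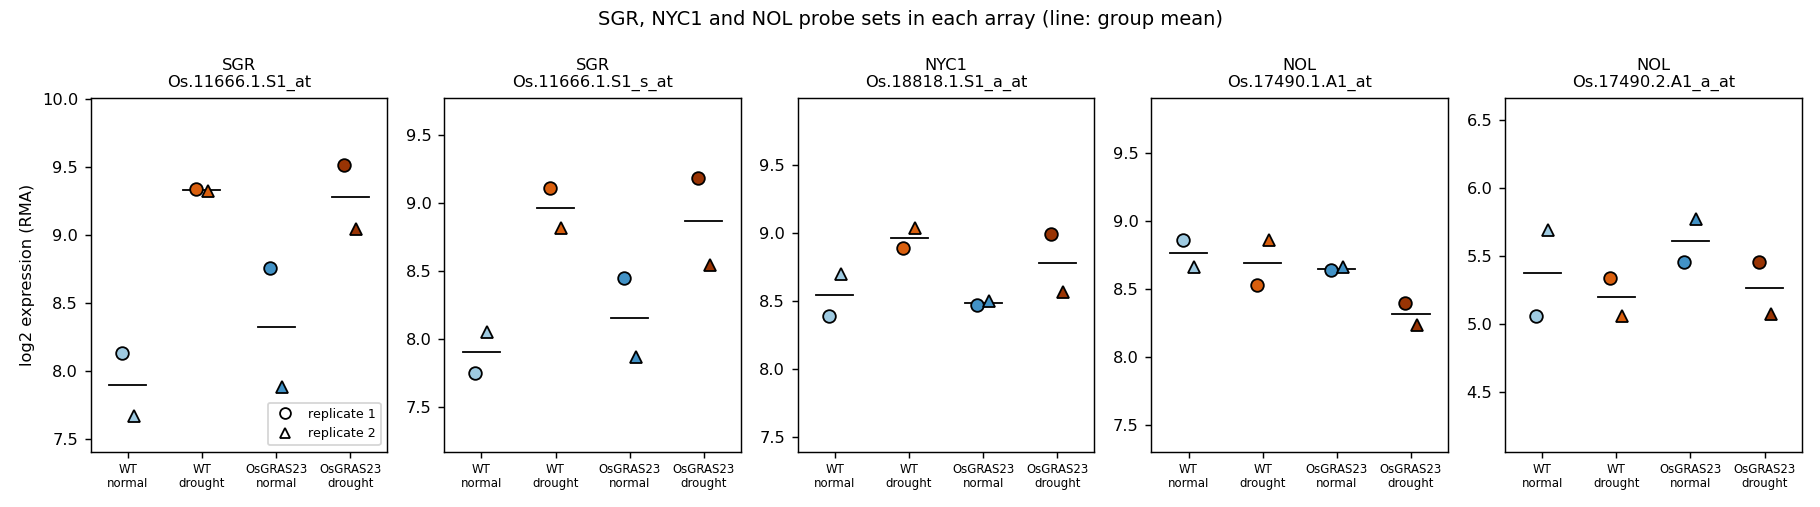
Log2 expression of each SGR, NYC1 and NOL probe set in the 4 groups, with 1 point per array and a line at the mean of each group; every panel spans the same log2 range. Both SGR probe sets have all drought arrays above all normal arrays, while the NYC1 and NOL arrays of the 2 conditions overlap.

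The group means of this SGR probe set were 7.90 ± 0.33 (SD, n = 2) in WT normal and 9.33 ± 0.01 (SD, n = 2) in WT drought leaves. Those of the OsGRAS23 plants were 8.32 ± 0.62 (SD, n = 2) under normal conditions and 9.28 ± 0.33 (SD, n = 2) under drought. In WT the log2 change was 1.43 (standard error 0.29, 95% interval 0.76 to 2.1, limma adjusted p = 0.0138), which ranked 666 from the highest of 57194. Probe sets were called where the change reached 2-fold and the adjusted p stayed under 0.05, which made 2.17% of all probe sets higher in WT. Higher probe sets were 28.2% of all WT calls, and 41.1% of them after quantile normalization. The call was lost without WT normal replicate 2 (change 1.20, limma adjusted p = 0.107), WT drought replicate 1 (1.42, 0.0717) or WT drought replicate 2 (1.44, 0.0744). An exact two-sided permutation test on groups of 2 cannot go below p = 0.333, so each call leans on the spread that limma shares over groups and probe sets.

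The second SGR probe set, Os.11666.1.S1_s_at, belongs to the class that can match several transcripts. It read 7.75 and 8.05 on WT normal arrays, 9.11 and 8.82 on WT drought arrays, 8.45 and 7.87 on OsGRAS23 normal arrays, and 9.18 and 8.55 on OsGRAS23 drought arrays. As on the first probe set, every drought array exceeded every normal array, though the lowest drought array stood only just above the highest normal array. The WT change was 1.06 (standard error 0.27, limma adjusted p = 0.0274), also called. It fell just short of 2-fold when arrays were centred on their medians (0.98, limma adjusted p = 0.0385), and the call was lost without any 1 of the 4 WT arrays (0.91 to 1.21, limma adjusted p = 0.0791 to 0.132).

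In OsGRAS23 plants SGR had a drought change of 0.96 on the first probe set (1.94-fold, 95% interval 0.29 to 1.63, limma adjusted p = 0.127) and 0.71 on the second (limma adjusted p = 0.212). Neither was called. Without OsGRAS23 normal replicate 2 these changes were 0.52 and 0.42, without drought replicate 1 of that genotype 0.73 and 0.39, and without its normal replicate 1 they were 1.40 and 1.0. The second was 1.03 without OsGRAS23 drought replicate 2. In all, 1.6% of all probe sets were called higher in this genotype. At an unadjusted p under 0.05, 2 of the 5 probe sets passed, both of SGR, where 17% of all probe sets did. The change in OsGRAS23 plants minus that in WT was -0.47 for the first probe set (95% interval -1.42 to 0.47, limma adjusted p = 0.791) and -0.35 for the second (limma adjusted p = 0.822). Leaving out 1 array moved them over -0.91 to -0.03 and -0.67 to -0.03, nearest to 0 without OsGRAS23 normal replicate 1 on the first and OsGRAS23 drought replicate 2 on the second. These intervals hold both no difference and a weaker rise in OsGRAS23 plants of more than 2-fold. In limma, none of the 57194 probe sets was called for this difference (0%), and 3839 had an unadjusted p under 0.05.

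Averaged over both genotypes, SGR rose by 1.20 on the log2 scale (standard error 0.21, 2.29-fold, limma adjusted p = 0.00472) on the first probe set, where 2.08% of all probe sets were called higher. On the second it changed by 0.88 (limma adjusted p = 0.0110), under the 2-fold threshold. Without OsGRAS23 normal replicate 2 the first probe set also fell under 2-fold (0.98, limma adjusted p = 0.0102). The second passed it without OsGRAS23 normal replicate 1 (1.03, limma adjusted p = 0.0134) or OsGRAS23 drought replicate 2 (1.04), and after quantile normalization (1.02, limma adjusted p = 0.00507).

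Between genotypes SGR did not pass the test under either condition. On the first probe set OsGRAS23 minus WT was 0.42 under normal conditions (95% interval -0.25 to 1.09, limma adjusted p = 1), with 0.0192% of all probe sets called in either direction. Under drought it was -0.05 (95% interval -0.72 to 0.62, limma adjusted p = 0.967), with 0.0157% called. The normal difference rested on 1 array, OsGRAS23 normal replicate 1, without which it was -0.02, and which also had the lower root and higher dividing cell markers of its pair. Ordered by mean level, SGR was highest in WT drought, then OsGRAS23 drought, OsGRAS23 normal and WT normal leaves. No pair of neighbours in that order passed the test, and the 2 ends, WT drought and WT normal, did. On the first probe set OsGRAS23 drought minus WT normal passed too (1.38, limma adjusted p = 0.0233). There, WT drought minus OsGRAS23 normal did not (1.01, limma adjusted p = 0.0677). Neither of these comparisons passed on the second probe set.

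NYC1, the chlorophyll b reductase subunit with membrane-spanning stretches, was measured by 1 probe set, Os.18818.1.S1_a_at, also of the class that can match several transcripts. It read 8.39 and 8.70 on WT normal arrays and 8.90 and 9.04 on WT drought arrays. It read 8.47 and 8.50 on OsGRAS23 normal arrays and 8.99 and 8.57 on OsGRAS23 drought arrays. Drought arrays lay above normal arrays within each genotype, which held for 36.7% of all probe sets in WT and 25.8% in OsGRAS23 plants. Over both genotypes they overlapped, because OsGRAS23 drought replicate 2 stood below WT normal replicate 2.

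The NYC1 change was 0.42 in WT (1.34-fold, standard error 0.19, 95% interval -0.00 to 0.85, limma adjusted p = 0.142) and 0.29 in OsGRAS23 plants (95% interval -0.13 to 0.72, limma adjusted p = 0.501). The mean of both genotypes was 0.36 (95% interval 0.06 to 0.66, limma adjusted p = 0.0838). None of these passed. The WT value was 0.27 without WT normal replicate 1, and the OsGRAS23 value was 0.084 without drought replicate 1 and 0.51 without drought replicate 2 of that genotype. The intervals leave room for a rise of up to 1.80-fold in WT but not for one of 2-fold. The difference between genotypes in the drought change was -0.13 (95% interval -0.73 to 0.47, limma adjusted p = 0.911). NYC1 means ran from 8.97 ± 0.10 (SD, n = 2) in WT drought and 8.78 ± 0.30 (SD, n = 2) in OsGRAS23 drought to 8.54 ± 0.22 (SD, n = 2) in WT normal and 8.49 ± 0.02 (SD, n = 2) in OsGRAS23 normal leaves. Neither any neighbours nor the 2 ends of that order (0.48, limma adjusted p = 0.143) passed the test.

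NOL, the partner of NYC1, was read by a bright and a dim probe set. The bright one, Os.17490.1.A1_at, matches a single transcript. It read 8.86 and 8.67 on WT normal arrays and 8.53 and 8.86 on WT drought arrays. It read 8.64 and 8.66 on OsGRAS23 normal arrays and 8.40 and 8.23 on OsGRAS23 drought arrays. The WT conditions overlapped, and the 2 OsGRAS23 drought arrays were the lowest of the 8. They lay below the OsGRAS23 normal arrays, as 25.1% of all probe sets did, and below the WT drought arrays, as 21.8% did. The OsGRAS23 normal arrays also lay just below the WT normal arrays, as for 16.4% of all probe sets.

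The NOL change on this probe set was -0.07 in WT (95% interval -0.45 to 0.32, limma adjusted p = 0.797) and -0.34 in OsGRAS23 plants (95% interval -0.72 to 0.05, limma adjusted p = 0.369). The WT value was above 0 after quantile normalization (0.12) and without WT drought replicate 1 (0.10) or WT normal replicate 1 (0.03). The largest difference between genotypes was under drought, where OsGRAS23 minus WT was -0.38 (95% interval -0.77 to 0.00, limma adjusted p = 0.694). NOL means were 8.76 ± 0.14 (SD, n = 2) in WT normal, 8.70 ± 0.23 (SD, n = 2) in WT drought, 8.65 ± 0.02 (SD, n = 2) in OsGRAS23 normal and 8.31 ± 0.11 (SD, n = 2) in OsGRAS23 drought leaves. No neighbours in this order passed the test, nor did its ends (-0.45, limma adjusted p = 0.141).

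The dim NOL probe set, Os.17490.2.A1_a_at, can match several transcripts. It read 5.06 and 5.69 on WT normal, 5.34 and 5.06 on WT drought, 5.45 and 5.77 on OsGRAS23 normal, and 5.46 and 5.07 on OsGRAS23 drought arrays. The 2 conditions overlapped within each genotype, as did the genotypes within each condition. Its changes were -0.18 in WT (limma adjusted p = 0.631) and -0.35 in OsGRAS23 plants (limma adjusted p = 0.551). The NOL probe sets ordered the groups differently, the dim one being highest in OsGRAS23 normal leaves and the bright one in WT normal leaves.

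**Figure D2:**
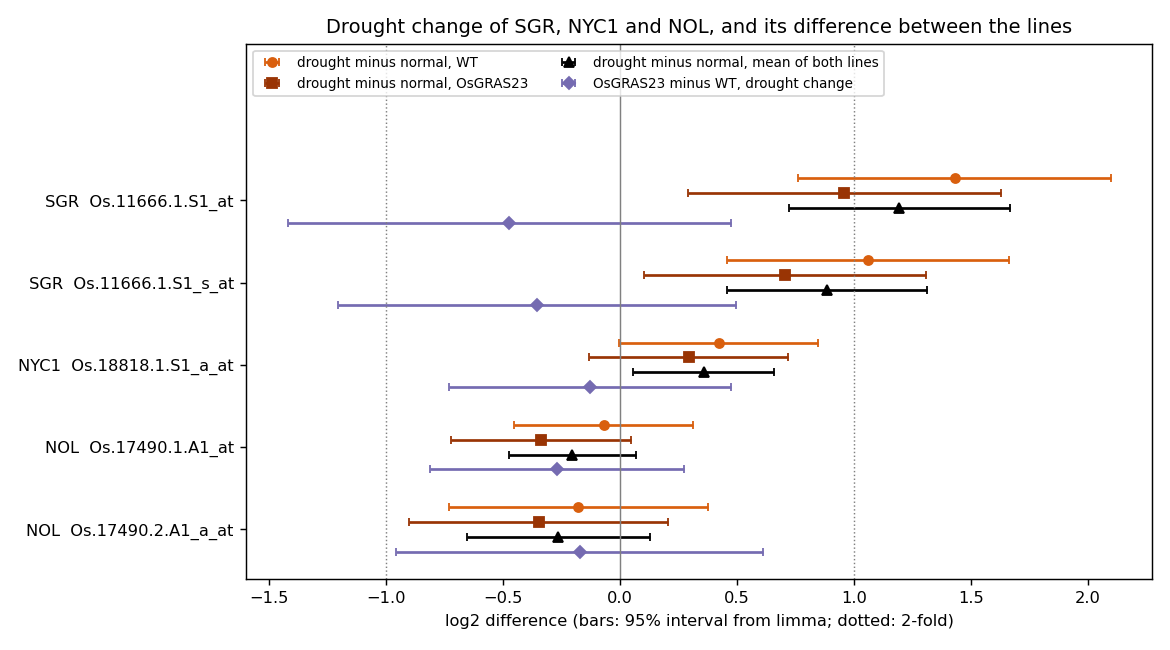
Log2 drought change of each SGR, NYC1 and NOL probe set in WT, in OsGRAS23 plants and as their mean, and the difference between the genotypes, with 95% intervals from limma; dotted lines mark 2-fold. All SGR intervals of the drought change lie above 0, before adjustment over probe sets, the NOL intervals include 0, and every interval of the difference between genotypes includes 0.

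Since the 3 genes act in 1 pathway, their changes were also set against each other within each array, on the brightest probe set of each gene. This comparison was added after the values were seen. The level of such a ratio says nothing of relative amounts, because probe sets differ in brightness, and only its shift between conditions was tested, by exact two-sided permutation tests of 4 drought against 4 normal arrays. Over 70 arrangements the smallest p is 0.0286, and p-values were adjusted over the 3 ratios. The arrangements exchanged arrays without regard to genotype, so groups of 2 were pooled into sets of 4. Exchange kept within each genotype has fewer arrangements and so a higher smallest p, and it was not run. That smallest p lies above the adjusted p threshold used for calls, so no ratio could have passed such a test. Any pass of a ratio given below therefore rests on pooling the genotypes.

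The log2 ratio of SGR over NOL was -0.73 and -1.0 on WT normal arrays and 0.81 and 0.46 on WT drought arrays. It was 0.12 and -0.78 on OsGRAS23 normal arrays and 1.12 and 0.81 on OsGRAS23 drought arrays. Every drought array stood above every normal array. Single probe sets did so for 11.9% of all, and the share among ratios was not computed. The shift was 1.40 (1.5 in WT and 1.29 in OsGRAS23 plants, exact permutation p = 0.0286, adjusted p = 0.0429, higher in 4 of 4 drought arrays), and it had the same sign in both genotypes. This ratio too was formed once the values of its genes were known, and its p is the smallest this test can give. SGR alone already separated the conditions, so the test adds little to that.

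The ratio of NYC1 over NOL was -0.47 and 0.03 on WT normal arrays, 0.36 and 0.18 on WT drought arrays, -0.16 and -0.16 on OsGRAS23 normal arrays, and 0.60 and 0.34 on OsGRAS23 drought arrays. Again the conditions did not overlap, a separation whose share among ratios was not computed. The shift was 0.56 (0.49 in WT and 0.63 in OsGRAS23 plants, exact permutation p = 0.0286, adjusted p = 0.0429) on a ratio formed once the values of NYC1 and NOL were known, at the smallest p this test can give. NYC1 and NOL did not pass on their own. The ratio of SGR over NYC1 shifted by 0.84 (exact permutation p = 0.0571, adjusted p = 0.0571) and did not pass. Its lowest drought array, at 0.28, and its highest normal array, at 0.29, overlapped. With the other probe set of SGR this shift was 0.53 and again did not pass. Neither ratio over NOL passed once any 1 drought array was left out (adjusted exact permutation p = 0.0571 to 0.0857). The shifts then ran from 1.29 to 1.51 for SGR over NOL and from 0.48 to 0.62 for NYC1 over NOL. Both ratios over NOL passed without any 1 normal array. Without OsGRAS23 normal replicate 1 the ratio of SGR over NYC1 passed (shift 1.07, adjusted exact permutation p = 0.0286).

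**Figure D3:**
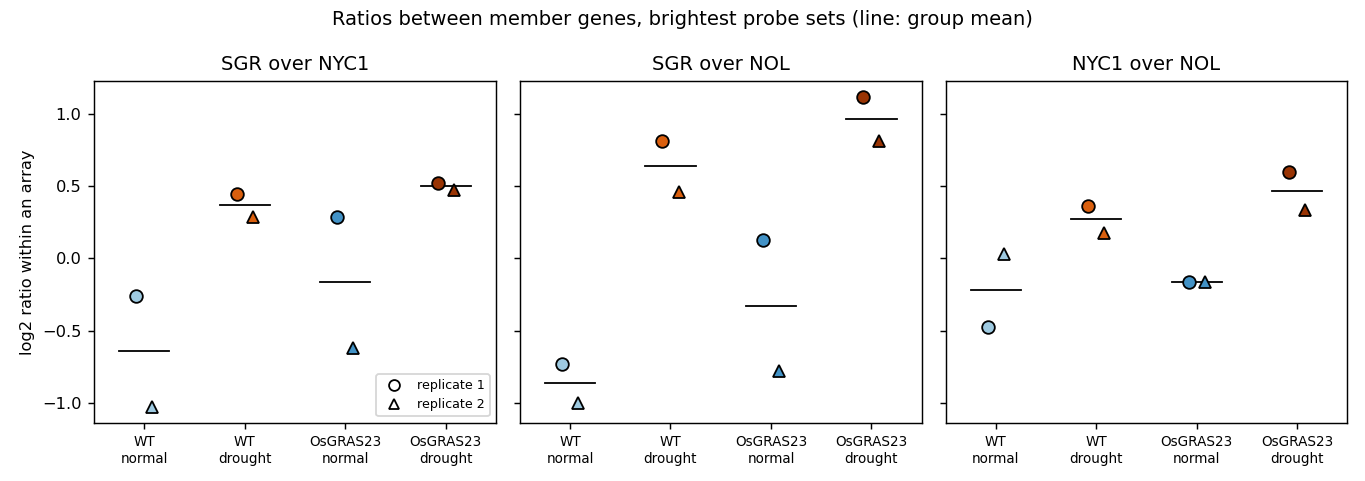
Log2 ratios between SGR, NYC1 and NOL within each array, on the brightest probe set of each gene, with 1 point per array and a line at the group mean. Drought arrays lie above normal arrays in both ratios over NOL; in the ratio of SGR over NYC1, OsGRAS23 normal replicate 1 reaches the level of the drought arrays.

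The other measured genes of chlorophyll breakdown did not pass the test. Of 9 names listed, 5 genes had a probe set, and in WT 1 was called higher (SGR), none lower and 4 neither, where 2.17% of all probe sets were called higher and 5.51% lower. Their median change was 0.07 beside 0.08 for all probe sets. THF1, also known as NYC4 and needed for thylakoid formation, changed by -0.15 in WT and -0.18 in OsGRAS23 plants (limma adjusted p = 0.460 and 0.609). RCCR1, red chlorophyll catabolite reductase of a later step, changed by 0.07 and 0.35 (limma adjusted p = 0.840 and 0.483). In OsGRAS23 plants none of the 5 was called by limma, with 1 at an unadjusted p under 0.05 (17% of all probe sets), and their median change was 0.29 beside 0.02 for all probe sets.

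Genes of chlorophyll synthesis that passed the test in WT were all lower. Of 14 names listed, 8 genes had a probe set, and 4 of them were called lower and none higher, where 5.51% of all probe sets were called lower. All 8 had a change below 0, with a median of -0.76 beside 0.08 for all probe sets. Other lists, some of them sharing genes, also lay wholly below 0 in WT. These were 5 Rubisco and photosystem genes, 2 light-harvesting genes, and 5 leaf blade, 2 root and 4 dividing cell markers. Below 0 too were 2 of 5 breakdown genes, 2 of 4 senescence genes and 1 of 5 flower markers. CHLH, CHLI and CHLD encode the subunits of magnesium chelatase, which inserts the metal that SGR removes. CHLH read 9.80 and 9.90 on WT normal arrays and 8.82 and 8.77 on WT drought arrays (change -1.06, limma adjusted p = 0.00404). Its drought arrays lay below its normal arrays, as for 27.6% of all probe sets in WT. Where both of the 2 CHLH probe sets had to be called, 3 of the 8 genes stayed called lower in WT. CHLH was not among them. CHLI changed by -1.04 (limma adjusted p = 0.0203) and was called, and CHLD by -0.39 (limma adjusted p = 0.193) and was not.

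CAO, the oxygenase that makes chlorophyll b and so runs opposite to NYC1 and NOL, read 9.38 and 9.81 on WT normal arrays and 8.69 and 8.10 on WT drought arrays (change -1.20, limma adjusted p = 0.0277). PORB, a protochlorophyllide oxidoreductase, fell by 1.02 on the log2 scale (limma adjusted p = 0.00968). PORA, its relative, changed by -0.44 and GSA, an early enzyme of the pathway, by -0.31 (limma adjusted p = 0.360 and 0.259). After quantile normalization CHLH (-0.93), CHLI (-0.98) and PORB (-0.96) fell just short of 2-fold. Of the 4 calls of lower genes, 1 was left when WT normal replicate 2 was taken out, 2 when WT drought replicate 1 was and 1 when WT drought replicate 2 was.

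In OsGRAS23 plants the same 8 genes again all had changes below 0, with a median of -0.55 beside 0.02 for all probe sets. The light-harvesting genes, root markers and dividing cell markers did as well, as did 4 of 5 genes in the Rubisco and leaf blade lists. The breakdown, senescence and flower lists had the same counts below 0 as in WT. CHLH was the 1 gene called lower (-1.15, limma adjusted p = 0.00732), where 0.836% of all probe sets were. Without OsGRAS23 normal replicate 1 it was not called (-1.17, limma adjusted p = 0.0630), and without OsGRAS23 drought replicate 1 the 1 gene became 3. Where more than 1 of the 2 CHLH probe sets had to be called, none of the 8 genes was. CAO changed by -0.57 (limma adjusted p = 0.392), PORA by -1.23 (limma adjusted p = 0.0819) and PORB by -0.83 (limma adjusted p = 0.0516).

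**Figure D4:**
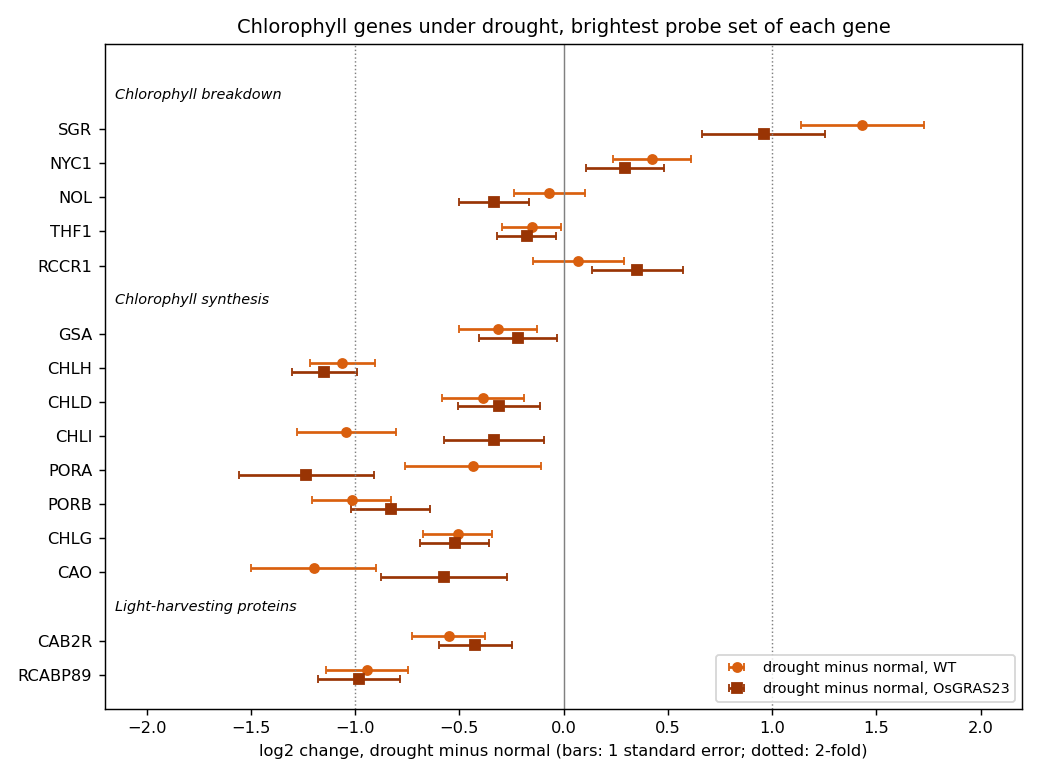
Log2 drought change, with 1 standard error, of the genes of chlorophyll breakdown, chlorophyll synthesis and light-harvesting proteins in WT and OsGRAS23 plants, on the brightest probe set of each gene; dotted lines mark 2-fold. SGR is the 1 breakdown gene past 2-fold, in WT, and all synthesis genes lie below 0 in both genotypes.

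The proteins that hold chlorophyll were measured by few probe sets. Of 4 names of light-harvesting proteins 2 had a probe set, and neither was called by limma. CAB2R changed by -0.55 in WT and -0.42 in OsGRAS23 plants, and RCABP89 by -0.94 and -0.98 (limma adjusted p = 0.0144 and 0.0328), just under 2-fold. Of 12 names of Rubisco and photosystem proteins 5 had a probe set, none was called in either genotype, and none had an unadjusted p under 0.05. RBCS, the small subunit of Rubisco, changed by -0.02 in WT and -0.28 in OsGRAS23 plants, the Rubisco activase gene RCA by -0.58 and -0.37, and the photosystem gene PSAH by -0.02 and -0.09.

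Of 13 names of senescence regulators and markers 4 genes had a probe set, and in WT 1 was called higher and 1 lower, beside 2.17% and 5.51% of all probe sets. Both carry the name EIL1, a factor of ethylene signalling. Gene 107276358 rose by 1.08 on the log2 scale (limma adjusted p = 0.00344) and gene 4332697 had a change of -2.0 (limma adjusted p = 0.00186). The first was not called where both of its 2 probe sets had to pass, and fell under 2-fold without WT normal replicate 2 (0.98) and with median centring (1.00, limma adjusted p = 0.00401). In OsGRAS23 plants the values were 0.80 (limma adjusted p = 0.0257, under 2-fold) and -0.87 (limma adjusted p = 0.0886). OSL2 changed by 0.05 in WT and 0.07 in OsGRAS23 plants, and the phytochrome gene PHYB by -0.42 and -0.35 (limma adjusted p = 0.0746 and 0.253 for PHYB).

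The genes whose pattern over the 8 arrays was most like that of each member were found by Pearson's r among 2511 or 2512 named probe sets. The arrays share the 4 groups, so r can reflect differences between groups. These were not separated out, and r is given as a description. Those nearest to SGR, at r of 0.97 to 0.96, were HPT1, OsSDS, OsPSY3, EL2 and FOR1. OsPSY3, a phytoene synthase of carotenoid synthesis, changed most, by 2.44 in WT and 2.1 in OsGRAS23 plants (limma adjusted p = 0.00256 and 0.0110). HPT1, OsSDS, EL2 and FOR1 changed by 1.17 to 1.89 in WT and 0.74 to 1.38 in OsGRAS23 plants, where none of them was called. Nearest to NYC1, at 0.95 to 0.92, were HSF12, DREB2A, HSP18.6, AGO3 and HSP81-3. Among these the small heat shock gene HSP18.6 changed most, by 4.11 and 4.19 (limma adjusted p = 0.00632 and 0.0149). The nearest, HSF12, changed by 0.33 in each genotype (limma adjusted p = 0.182 and 0.372). DREB2A, AGO3 and HSP81-3 changed by 0.51 to 0.73 in WT and 0.48 to 0.97 in OsGRAS23 plants, none called. Nearest to NOL, at 0.93 to 0.89, were CpSecY, PPO, PNP1, OsrbcS and UPD1, and OsrbcS, a Rubisco small subunit gene, changed by -0.21 and -0.54 without passing the test. The 3 lists shared no gene.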

How the data were processed

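Values deposited by the authors were log2 expression per probe set from Affymetrix rice arrays, labelled from 6 μg of total RNA; the submitters' processing notes name RMA and Partek 6.5, and the settings used there are not given in these sources. No further normalization was applied. Of 57381 probe sets, 187 array controls were left out. A model of 4 group means was fitted to all 8 arrays with limma 3.58.1 in R 4.3.3 (4 residual and 4.85 prior degrees of freedom), and two-sided p-values were adjusted by Benjamini-Hochberg over 57194 probe sets. Precision is limited by the number of arrays. Plots and ratios used Python 3.11.15, numpy 2.4.6, pandas 2.3.3 and matplotlib 3.10.9.

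The platform table, read with the RefSeq table of assembly ASM3414082v1 for names only, gave 22436 probe sets 1 gene, 95 several and 34663 none. The probe set with the highest mean stood for each gene, and gene lists (breakdown, synthesis, light-harvesting, Rubisco and photosystem, senescence, leaf, root, dividing cell and flower markers) were matched by name or locus. Named were the members, list genes that were called, up to 3 of the brightest others per list, and the 5 genes most like each member. Members and lists were chosen with earlier results of these data known. Alternatives changed the fitted groups, scaling, dim filter, spread, thresholds, replicate block, probe set class and arrays, 1 at a time. The fit was tested on simulated data for WT drought against WT normal: 100 probe sets with a true log2 change of 1.5 gave 95 calls and 100 with one of 3 gave 100, out of 208 calls among 57194, the other 13 being false. The simulated noise was normal, independent and equally spread in every group. It therefore does not show how the fit performs where the spread differs between groups.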

Additional observations from a re-analysis of the deposited data

How the results depend on the processing

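Of the recomputed values of SGR, NYC1, NOL and their ratios, 469 kept their direction and their side of the threshold, 19 turned direction, 19 lost a call and 5 gained one. The 469 include fits without an array from outside the comparison, which leave the change itself as it was. They also include many values that were not called to begin with. With 2 arrays per group, leaving out 1 leaves a lone array that is assumed to vary like the other groups. The cause of these shifts was not tested, except that other thresholds change calls by construction.

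After quantile normalization the second SGR probe set reached 1.02 over both genotypes, the bright NOL probe set turned to 0.12 in WT, and NYC1 turned to 0.0014 between genotypes under normal conditions. With median centring the second SGR probe set was at 0.98 in WT. With no fold threshold WT had 3676 higher and 6856 lower probe sets (1239 and 3153 as reported), OsGRAS23 plants had 764 lower (478) and both genotypes together 4669 and 8305 (1192 and 1627), and the second SGR probe set was called over both at 0.88. At an adjusted p under 0.01 WT had 730 and 1807 and OsGRAS23 plants 348 and 96 (914 and 478), and the SGR probe sets were not called in WT at 1.43 and 1.06.

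Between genotypes under normal conditions 9 probe sets were higher and 2 lower in limma. The 2 became 0 in a fit of the compared groups alone, above a mean of 5 or at an adjusted p under 0.01, 1 after quantile normalization or once probe sets matching several transcripts were left out, and a trended and robust spread gave 15 and 6. Replicate numbers did not pair the samples (correlations of deviations from -0.17 to 0.10 over 6 pairs of groups). With the replicate number as a block the 2 became 0, and no SGR, NYC1 or NOL call changed (SGR in WT at 1.43, limma adjusted p = 0.00689).

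Leaving out 1 array at a time gave 691 to 2323 higher and 1239 to 4900 lower probe sets in WT, 252 to 912 and 65 to 557 in OsGRAS23 plants, 7 to 20 and 0 to 2 between genotypes under normal conditions, and 0 to 1 lower under drought. The WT change ran from 1.20 to 1.66 and 0.91 to 1.21 on the SGR probe sets, from -0.23 to 0.10 and -0.49 to 0.14 on the NOL probe sets. Over both genotypes SGR ran from 0.98 to 1.42 and 0.73 to 1.04. Between genotypes under normal conditions SGR ran from -0.020 to 0.86 and -0.036 to 0.54, NYC1 from -0.21 to 0.10 and the dim NOL probe set from -0.078 to 0.55. Under drought SGR ran from -0.29 to 0.18 and -0.42 to 0.22, NYC1 from -0.40 to 0.026 and the dim NOL probe set from -0.13 to 0.26. The difference in drought change ran from -0.34 to 0.083 for NYC1 and -0.48 to 0.15 for the dim NOL probe set. The ratio shifts ran from 0.63 to 1.07 for SGR over NYC1, 1.26 to 1.64 for SGR over NOL and 0.47 to 0.63 for NYC1 over NOL.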
